A study of Mus musculus with 9 samples.

Results

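Cohesin is the ring-shaped protein complex that holds sister chromatids together from DNA replication until anaphase. The 10 genes described here, of 24736 in the tables, encode its SMC subunits (Smc1a, Smc1b, Smc3), its kleisins (Rad21, Rad21l, Rec8), its STAG subunits (Stag1, Stag2, Stag3) and its loader Nipbl. They were chosen by name, without regard to any measured value, and all 10 symbols were found in each table. The transcripts came from oocytes arrested at the second meiotic metaphase (MII) of female mice of the outbred ICR strain, labelled as 4 to 5 weeks old, with 15 oocytes of 1 mouse in each library. The 3 control mice had no stress. The 3 stress mice met 1 stressor a day (tail pinch for 10 min, a cold swim, loss of water or food, wet bedding, constant light, or restraint for 60 min) for 6 weeks. The 3 KYZY mice had the same 6 weeks of stressors and then 0.1 ml a day of the herbal decoction KYZY into the stomach for 4 weeks. Mice of every group, controls included, were superovulated with 7.5 IU of PMSG and 7.5 IU of HCG, and the oocytes were taken from the oviducts 16 h later and stripped of cumulus cells with hyaluronidase. No group that received a vehicle in place of the decoction is described, and the KYZY libraries carry a different sequencing description from the other 6. A difference of the KYZY group therefore cannot be told apart from the gavage, the 4 further weeks or whatever the different sequencing description stands for.

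In the cohesin ring, an SMC1 and an SMC3 protein are closed by a kleisin, to which a STAG protein binds. Somatic cells use SMC1A, RAD21 and STAG1 or STAG2. Germ cells also make the meiotic forms SMC1B, REC8, RAD21L and STAG3, and in the mouse oocyte cohesion is laid down before birth and must last until the egg divides. Separase cuts the kleisin on the chromosome arms at the first meiotic division and at the centromeres at the second, where shugoshin and protein phosphatase 2A protect it in the meantime.

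Total counts ran from 46324094 to 106990821 per library, and 13257 to 15802 genes had a value above 0. Levels are given in CPM, a gene's count over the TMM-scaled total of its library. The tables behaved as if 1 read pair were worth about 4 counts, so a gene was taken to be seen only at 12 counts (3 read pairs) or more, a floor equal to 0.105 to 0.245 CPM. All 12 oocyte markers were above 0 in each library, with summed levels of 22603 to 41390 CPM. The 24 markers of cumulus and granulosa cells summed to 371 CPM in control 3, 83.8 in stress 3, 387 in KYZY 2 and 693 in KYZY 3, and to 21.2 to 40.4 in the other 5 libraries. Areg and Pgr were at 0 throughout. The 10 markers of oviduct epithelium summed to 967 to 2332 CPM, but this was nearly all Tubb4b (614 to 1829 CPM) and Cdh1 (243 to 500 CPM), and Ovgp1, the oviduct glycoprotein, reached 4.74 CPM in control 3, 7.75 in KYZY 3 and at most 2.09 elsewhere. The 10 markers of stroma and endothelium summed to 63.0 CPM in control 3 and 73.7 in KYZY 3, and to 20.3 to 31.2 in the other 7 libraries, where most of the sum was Pecam1 (17.5 to 27.3 CPM). Control 3, stress 3, KYZY 2 and KYZY 3 are called the 4 marker-rich libraries, and results that rest on them are given with and without them. In libraries of whole oocytes with traces of other cells, fewer cells of a type and less RNA per cell cannot be told apart.

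Of the 10 genes, 9 were measured well enough to be tested, and 1, Rec8, was listed at or near 0. The ring subunit Smc3 stood far above the rest. The somatic forms Smc1a and Rad21 followed it, Smc1b was present at a lower level than Smc1a, and Rad21l and Stag3 were scarce. Compared between genes per kilobase of the longest annotated transcript, the means over 9 libraries were 41.1 CPM per kb for Smc3, 4.59 for Smc1a, 4.10 for Rad21, 2.87 for Smc1b, 2.32 for Nipbl, 2.2 for Stag2, 1.6 for Stag1, 0.548 for Rad21l and 0.278 for Stag3. Smc3 was above Smc1a in 9 of 9 libraries and their ranges did not overlap (11.8 to 88.9 against 4.04 to 5.69 CPM per kb). Stag1 and Rad21l were the other tested neighbours in this order whose ranges did not overlap (1.17 to 2.05 against 0.122 to 0.983 CPM per kb). The ranges of Smc1a, Rad21, Smc1b, Nipbl, Stag2 and Stag1 ran into one another, and Nipbl was above Stag2 in 4 of 9 libraries. Dividing by coding length in place of transcript length left Smc3 first and put Rad21 next at 8.50 CPM per kb, before Smc1a at 5.82 and Stag2 at 3.57.

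**Figure D1:**
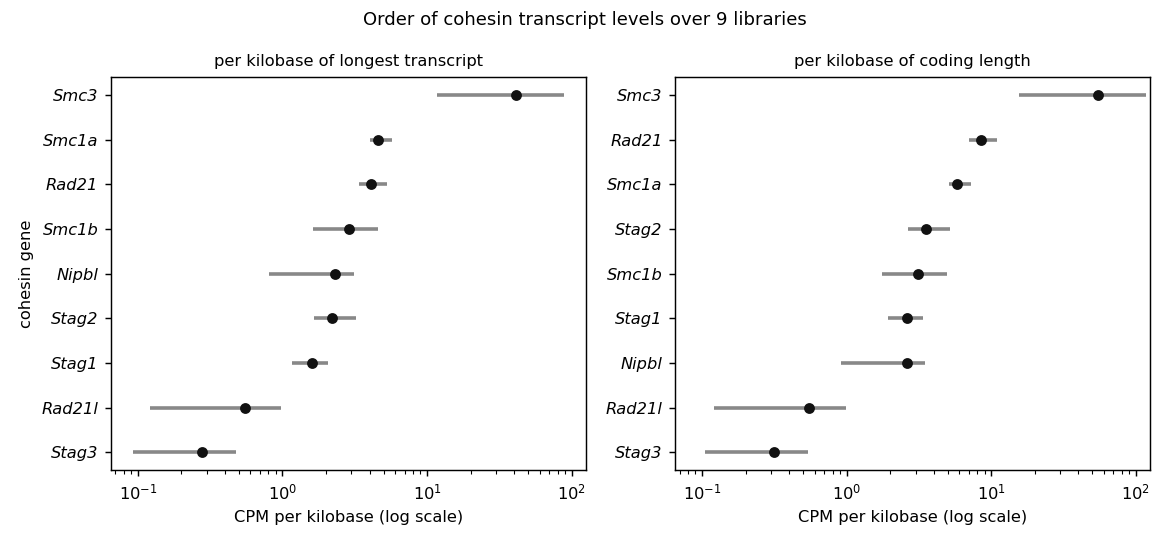
Mean (points) and range (bars) over 9 libraries of the level of 9 cohesin genes, as CPM per kilobase on a log scale, with the longest transcript (left) or the coding part (right) as the length. Smc3 lies apart at the top at 41.1 CPM per kb of transcript, and Rad21l and Stag3 lie at the bottom; Rec8, which was at 0 in 8 libraries, is not drawn.

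The SMC1 place in the ring can be filled by Smc1a or Smc1b. Smc1a (chromosome X, 152016428 to 152062694, plus strand, GRCm38; 25 exons), used in mitotic and meiotic cells alike, was at 21.4, 21.9 and 26.7 CPM in the control libraries, 20.6, 20.8 and 21.6 in the stress libraries, and 19, 20.5 and 21.3 in the KYZY libraries. Control 3 was the highest and KYZY 1 the lowest. Its level varied little: 1.87% of 1338 tested genes of like level had a smaller SD over the 9 libraries (0.13 on the log2 scale). Smc1b (chromosome 15, 85064689 to 85131964, minus strand; 25 exons), the meiotic form, was at 8.93, 6.53 and 13.2 CPM in control, 9.78, 9.29 and 18.6 in stress, and 9.08, 15.8 and 13.3 in KYZY libraries. Each group held both low and high values and the groups overlapped. Stress was 1.31 times control for Smc1b, with a 95% interval of 0.760 to 2.27, and KYZY was 1.01 times stress (0.587 to 1.75).

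Smc3 (chromosome 19, 53600398 to 53645833, plus strand; 29 exons) encodes the partner that every cohesin ring holds, mitotic or meiotic. It was at 154, 57.1 and 225 CPM in control 1 to 3, 142, 107 and 431 in stress 1 to 3, and 148, 316 and 214 in KYZY 1 to 3. The highest library was 7.56 times the lowest, and both extremes, control 2 and stress 3, lay outside the range of KYZY. Group means were 145 ± 84.4 (control), 227 ± 178 (stress) and 226 ± 84.5 CPM (KYZY; SD, n = 3). The stress mean was 1.56 times that of control in the fit, but the 95% interval ran from 0.577 to 4.22, and the difference turned negative without stress 3 (-0.22 on the log2 scale against 0.64 with it). One other gene, Gm29763, matched the Smc3 transcript over 616 bases at 94.5% identity, so a part of the Smc3 reads may have been counted there or the reverse. The other 9 cohesin genes had no such match of 150 bases or more at 90% identity or more.

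**Figure D2:**
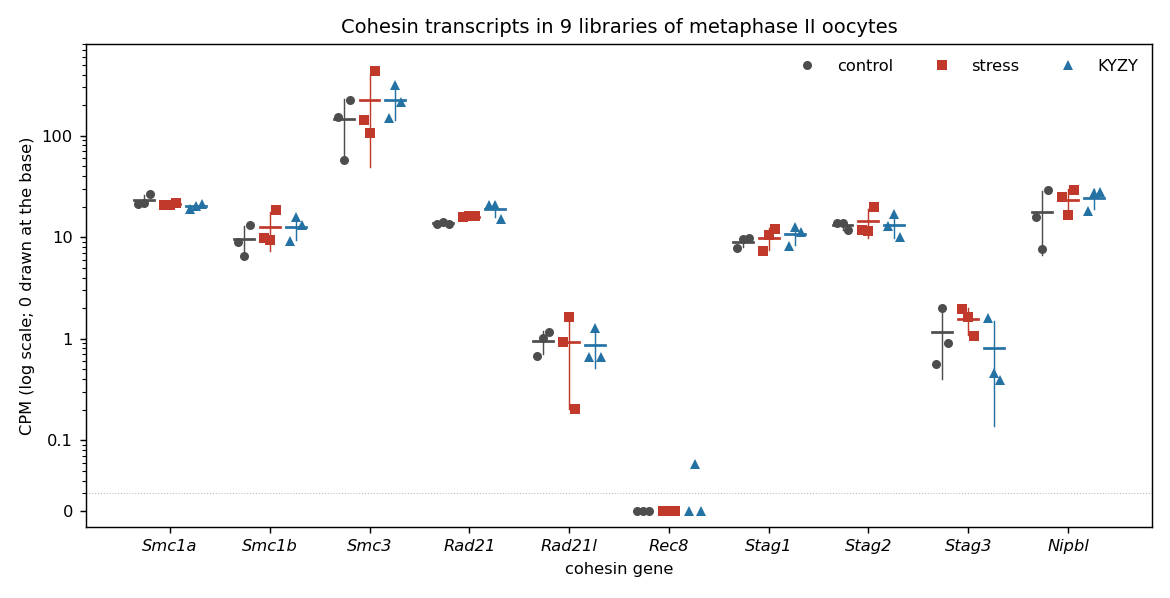
Levels of the 10 cohesin genes in each library, in CPM on a log scale, with 0 drawn at the base; points are libraries, horizontal lines the group means and vertical lines 1 SD (n = 3). The 3 groups lie over one another for most genes, Smc3 and Nipbl spread widely within groups, and Rec8 has a single library above 0.

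The sequences before the starts of the SMC genes are shown because Smc1a and Smc1b fill the same place in the ring with different spreads between libraries, while the levels of Smc1b and Smc3 were high and low in much the same libraries. They are the 250 bases upstream of the RefSeq start on GRCm38.p6, for Smc1a at chrX:152016178-152016427 (plus strand), for Smc1b at chr15:85131958-85132207 (minus strand) and for Smc3 at chr19:53600146-53600395 (plus strand). Capitals mark TTCCCGC, an E2F-type motif searched on both strands.
Smc1a: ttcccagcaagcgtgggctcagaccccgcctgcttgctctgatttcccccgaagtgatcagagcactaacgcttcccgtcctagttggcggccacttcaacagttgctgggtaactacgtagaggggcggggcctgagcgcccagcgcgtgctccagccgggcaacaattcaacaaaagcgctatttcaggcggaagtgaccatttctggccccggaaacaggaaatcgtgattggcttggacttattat
Smc1b: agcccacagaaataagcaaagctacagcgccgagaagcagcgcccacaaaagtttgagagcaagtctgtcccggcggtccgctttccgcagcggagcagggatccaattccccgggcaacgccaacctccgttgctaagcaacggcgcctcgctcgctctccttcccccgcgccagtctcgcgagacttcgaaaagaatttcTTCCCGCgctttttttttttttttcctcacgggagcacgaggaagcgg
Smc3: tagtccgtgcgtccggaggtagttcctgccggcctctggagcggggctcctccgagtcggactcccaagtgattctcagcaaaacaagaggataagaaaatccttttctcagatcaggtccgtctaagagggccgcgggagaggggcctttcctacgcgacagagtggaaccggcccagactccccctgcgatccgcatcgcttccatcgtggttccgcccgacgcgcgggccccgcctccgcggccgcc
The motif was present in the Smc1b window, starting 48 bases before the gene's start, and not in those of Smc1a or Smc3. Of the 7 cohesin genes with a RefSeq window (Rad21, Stag2 and Nipbl had none), Stag1 also held it, as did 3.82% of 32851 mouse windows of the same length. In Stag1 it lay 16 bases before the RefSeq start used. That window (chr9:100643198-100643447) lies inside the span given below for the gene, not at its outer end. CACGTG, an E-box, was present in the Stag3 window alone among the 7, against 6.02% of all windows. The Stag3 window (chr5:138280259-138280508) also lies inside the span given below for its gene. The windows of Rec8 (chr14:55617916-55618165) and Smc1b run partly into the spans given for their genes. The Stag1 window held 31 CpG dinucleotides, and those of Smc3 and Stag3 26 each. That of Smc1b held 25, Smc1a 16, Rec8 10 and Rad21l 1, beside a median of 6 over all windows. Such a match describes the letters only.

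The kleisin Rad21 (chromosome 15, 51962240 to 51991747, minus strand; 14 exons), the mitotic form that also takes part in meiosis, was higher than control, without overlap of the groups, in both treated groups. Its level was 13.4, 14.2 and 13.5 CPM in control, 15.7, 16.2 and 16.0 in stress, and 20.8, 20.8 and 15.2 in KYZY libraries. All 3 stress libraries and all 3 KYZY libraries lay above the 3 control libraries, while KYZY and stress overlapped through KYZY 3. Over all genes tested, 3.51% were higher than control without overlap in stress and 2.43% in KYZY. The 2 comparisons share the 3 control libraries and so are not independent. After the median of genes of like GC content was subtracted in each library (log2 values centred on the gene's mean), stress 3 (-0.149) fell below control 2 (-0.139), so stress and control then overlapped, while the KYZY libraries (-0.046 to 0.391) stayed above control (-0.281 to -0.139). Against control, stress was 1.16 times as high (95% interval 0.874 to 1.55) and KYZY 1.38 times (1.04 to 1.84). In the edgeR quasi-likelihood test the KYZY difference had an unadjusted p of 0.0311 and an adjusted p of 0.996 over the 13890 genes tested, so it did not pass. Of all genes tested, 0.871% were higher in KYZY than in control oocytes at an unadjusted p under 0.05 and 1.86% were lower.

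Rec8 (chromosome 14, 55618037 to 55625395, plus strand; 20 exons) encodes the kleisin that ties sister chromatids together through meiosis. Its count was 0 in 8 of 9 libraries and 4, the worth of 1 read pair, in KYZY 2 (0.0587 CPM). This lies under the floor of 12 counts in every library, and Rec8 was listed at 0 in all 6 control and stress libraries. Whether the 0 stands for little or no transcript or for how the authors' annotation and counting treated the gene was not tested. No fold change was computed. Its neighbour Ipo4 on the opposite strand, whose gene ends 4 bases from that of Rec8, was at 6.20 to 11.8 CPM. Rad21l (chromosome 2, 151645404 to 151668533, minus strand; 13 exons), the second meiotic kleisin, was at 0.678, 1.00 and 1.17 CPM in control, 0.920, 1.63 and 0.202 in stress, and 0.663, 1.26 and 0.653 in KYZY libraries. Stress held both its highest and its lowest library, the latter with 13 counts. Together with a 95% interval of 0.338 to 2.76 for stress over control, this leaves a difference of either sign possible.

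Of the STAG subunits, Stag2 and Stag1, the somatic forms, were the more abundant. Stag1 (chromosome 9, 100597798 to 100959375, plus strand; 34 exons) was at 7.76, 9.51 and 9.70 CPM in control, 7.25, 10.4 and 12.1 in stress, and 8.21, 12.7 and 11.3 in KYZY libraries. Stag2 (chromosome X, 42149317 to 42277185, plus strand; 34 exons) was at 13.8, 13.6 and 11.7 CPM in control, 11.9, 11.6 and 19.8 in stress, and 12.8, 16.9 and 10.1 in KYZY libraries. Both sets of groups overlapped, and stress was 1.10 times control for each. Stag3 (chromosome 5, 138280240 to 138312393, plus strand; 34 exons), the meiosis-specific form that pairs with REC8 and RAD21L, was at 0.562, 2.02 and 0.912 CPM in control, 1.95, 1.63 and 1.06 in stress, and 1.58, 0.455 and 0.388 in KYZY libraries. KYZY 2 and KYZY 3 were the lowest of the 9, with 31 and 19 counts, while KYZY 1 lay among the stress libraries. The KYZY mean was 0.523 times that of stress (95% interval 0.189 to 1.45), which did not pass. The log2 difference of -0.93 was -1.87 without KYZY 1 and -0.59 without KYZY 3, the extremes when 1 library was left out, and -0.17 without the 4 marker-rich libraries, which leaves 1 KYZY library.

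Nipbl (chromosome 15, 8290617 to 8444463, minus strand; 47 exons) encodes the protein that loads cohesin onto DNA and drives loop extrusion. It was at 15.8, 7.65 and 29.3 CPM in control, 24.9, 16.4 and 29.0 in stress, and 18.0, 27.3 and 28.1 in KYZY libraries. Control held both the lowest and the highest value, and stress was 1.33 times control with a 95% interval of 0.680 to 2.60. The log2 difference of 0.41 was 0.034 without control 2 and 1.00 without control 3.

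The makeup of each place in the ring, as shares of CPM per kilobase of longest transcript within a library, needs no scaling between libraries. Smc1b made up 25.7% to 49.9% of the SMC1 transcripts, with a median of 35.7%. Its mean share was 31.6% ± 5.46 (control), 39.8% ± 8.75 (stress) and 41.6% ± 5.73 (KYZY; SD, n = 3). The log2 ratio of Smc1b to Smc1a counts differed by 0.52 between stress and control (exact permutation test, 2-sided, p = 0.3, adjusted p = 0.6 over 6 tests), by 0.63 between KYZY and control (p = 0.2, adjusted p = 0.6, exact permutation) and by 0.11 between KYZY and stress (p = 0.8, adjusted p = 0.8, exact permutation). With 3 libraries against 3 the smallest p this test can give is 0.1. The ratio was higher in stress than in the same-numbered control library in 3 of 3 pairs (-1.07, -1.16 and -0.22 against -1.26, -1.75 and -1.01 in log2). An exact sign-flip permutation within these pairs gave p = 0.25, the smallest that 3 pairs allow. The pairs were formed by number only, and the labels tie no number to a litter or day. At the kleisin place Rad21 made up 80.6% to 97.1% and Rad21l 2.91% to 19.4%, and Rec8 reached 0.446% in KYZY 2. Stag3 made up 2.2% to 13.0% of the STAG transcripts, Stag2 46.1% to 61.8% and Stag1 33.0% to 51.3%. The log2 ratio of Stag3 to Stag1 plus Stag2 differed by 0.46 between stress and control (exact permutation p = 0.6, adjusted p = 0.72), by -1.19 between KYZY and stress (p = 0.3, adjusted p = 0.6, exact permutation) and by -0.74 between KYZY and control (p = 0.5, adjusted p = 0.72, exact permutation). A ratio of Rec8 to Rad21 could be formed in 1 library and was not tested. The shares are of RNA and do not show how much of each protein the oocytes held.

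**Figure D3:**
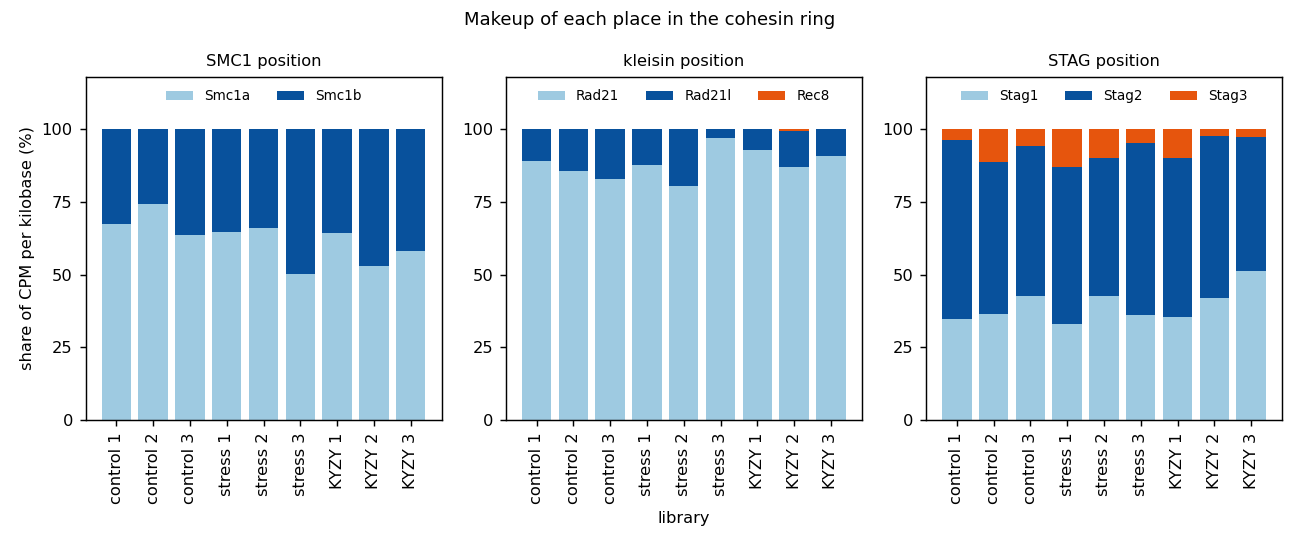
Share of each subunit gene among the transcripts that can fill the SMC1, kleisin or STAG place, in percent of CPM per kilobase of longest transcript, for each of 9 libraries. Smc1b takes 25.7% to 49.9% of the SMC1 place, Rad21 80.6% to 97.1% of the kleisin place, and Stag3 at most 13.0% of the STAG place.

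The comparison of stress with control asked whether weeks of daily stress changed these transcripts. In the edgeR quasi-likelihood test 0 of the 9 tested cohesin genes passed an adjusted p of 0.05, beside 0 of all 13890 genes tested (0%), where 373 genes had an unadjusted p under 0.05, 1.10% of all higher and 1.58% lower, none of them a cohesin gene. DESeq2 called 22 genes, 0.159% of those it tested, and 0 of them were cohesin genes. The cohesin genes' log2 differences lay from -0.15 (Smc1a) to 0.64 (Smc3), each with an adjusted p of 0.9999. Of the 9, 7 were above 0, beside 46.0% of all genes tested, and the median of the 9 was 0.22, beside -0.03 over all. These signs rest on shared libraries. Without stress 3, Smc1b (-0.0042), Smc3 (-0.22), Stag1 (-0.028) and Stag2 (-0.16) fell below 0, while Rad21l rose above it (0.42). Only Rad21 had groups that did not overlap, higher in 3 of 3 stress libraries, beside 3.51% of all genes that were higher without overlap and 4.38% that were lower, or 7.88% in either direction. With GC subtracted, as given above for this gene, the Rad21 groups overlapped too.

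The comparison of KYZY with stress asked whether the decoction moved the transcripts after stress. Here 0 of 9 cohesin genes passed, beside 0% of the 13890 genes in edgeR and 0.0941% in DESeq2. At an unadjusted p under 0.05 edgeR had 553 genes, 2.15% of all higher and 1.83% lower, and none of the 9. The differences ran from -0.93 (Stag3) to 0.25 (Rad21) on the log2 scale, 4 above 0 and 5 below, with a median of -0.01. Above 0 were 50.8% of all genes tested. None of the 9 had groups that did not overlap, beside 3.76% of all genes tested that were higher, 5.44% that were lower and 9.19% in either direction. The intervals were narrow enough for Smc1a to exclude a change beyond 0.742 to 1.25 times and for Stag2 one beyond 0.607 to 1.40 times, while for Smc3 they reached from 0.369 to 2.68 times.

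KYZY and control, which share their libraries with the other comparisons, were set side by side as well. Again 0 of 9 passed, beside 0% of genes in edgeR (380 at an unadjusted p under 0.05) and 0.00724% in DESeq2. Rad21 was higher and Smc1a lower in KYZY without overlap of the groups, beside 2.43% of all genes higher, 4.79% lower and 7.23% in either direction. Smc1a means were 23.3 ± 2.91 CPM (control) and 20.2 ± 1.18 CPM (KYZY; SD, n = 3), a ratio of 0.867 with a 95% interval of 0.668 to 1.13. Its log2 difference of -0.21 shrank to -0.068 without control 3, and with GC subtracted the Smc1a groups overlapped. The 9 differences ran from -0.53 (Stag3) to 0.63 (Smc3), 6 of them above 0, beside 49.7% of all genes. For Smc1a and Rad21 the distance between the lowest and highest group mean was 0.20 and 0.44 on the log2 scale. The distance between the lowest and highest library of a group, averaged over the 3 groups, was less (0.18 and 0.19). For the other 7 tested genes the distance between group means was the smaller, as for Smc3 with 0.77 against 1.69. How many of all genes were like Smc1a and Rad21 in this was not counted.

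**Figure D4:**
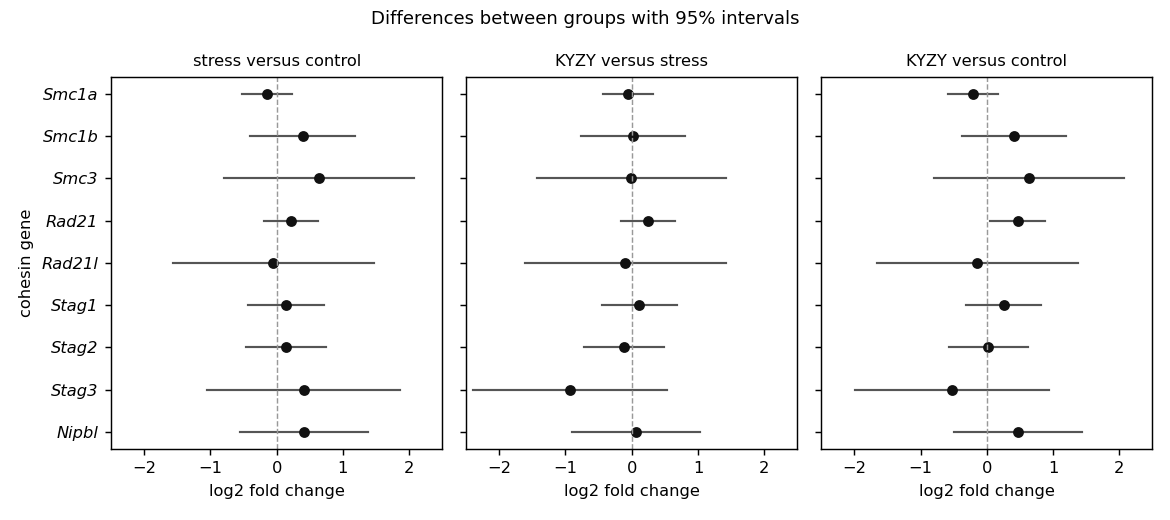
Log2 differences of 9 cohesin genes between groups (points) with 95% intervals (bars), from the edgeR fit of 9 libraries, with the first-named group of each panel minus the second. The intervals cross 0 in each panel except for Rad21 in KYZY versus control (0.05 to 0.88); Rad21l and Stag3 have wide intervals and Smc1a narrow ones.

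Most of the spread in Smc3, Smc1b and Nipbl lay between libraries of the same group. In the 4 marker-rich libraries Smc3 was at 214 to 431 CPM, against 57.1 to 154 in the other 5. Smc1b was at 13.2 to 18.6 against 6.53 to 9.78 CPM, and Nipbl at 27.3 to 29.3 against 7.65 to 24.9 CPM. For these 3 genes the 4 libraries lay above the other 5, which held for 9.94% of all genes tested. Among the 4, stress 3 had the highest Smc3 (431 CPM) and the lowest sum of cumulus markers (83.8 CPM). The order of the 4 differed between single markers. Inhba was highest in stress 3 (4.24 CPM), and Cyp11a1 in KYZY 3 (428 CPM, against 14.7 in stress 3). The 10 blood and immune markers summed to 9.87 CPM in control 3, 0.962 in stress 3, 61.1 in KYZY 2 and 7.10 in KYZY 3, beside 0.430 to 2.73 in the other 5, with Hbb-bs at 0 throughout. The part of these cells in the result was not tested.

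Base composition moved with the same libraries. Among genes with a mean of 5 CPM or more, those with transcripts of less than 43.6% GC stood higher than those of more than 54.5% GC in the 4 marker-rich libraries, by 0.26, 0.33, 0.17 and 0.22 on the log2 scale in control 3, stress 3, KYZY 2 and KYZY 3. In the other 5 libraries this difference lay between -0.24 and -0.05. The transcripts of Smc1b (39.8% GC), Smc3 (42.3%) and Nipbl (42.4%) lay below the median of 49.8%. So did those of the other tested cohesin genes, from Stag2 (38.1%) to Stag3 (49.6%). Rad21l (40.9%), Stag1 (41.9%) and Stag2 were poorer in GC than Smc3. Their levels in the 4 libraries overlapped those in the other 5, with Rad21l at only 13 counts in stress 3. After the median of genes of like GC was subtracted in each library, the range over the 9 libraries went from 2.91 to 2.59 for Smc3, from 1.87 to 1.70 for Nipbl and from 1.44 to 0.92 for Smc1b, on the log2 scale. It also narrowed for Stag1, Stag2 and Stag3, and widened for Rad21l (1.60 to 1.92), Rad21 (0.62 to 0.67) and Smc1a (0.48 to 0.56). Smc3 and Smc1b were then still higher in each of the 4 marker-rich libraries than in the other 5, but Nipbl was not, with stress 1 (0.35) above stress 3 (0.28). The part of base composition in these results was not tested.

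The transcripts whose pattern over the 9 libraries was nearest to that of Smc3 were Sgo2a and Sgo2b, both shugoshin genes, which guard centromeric cohesion, and Rbm25, a splicing factor gene. Likeness was measured as the root mean square difference of log2(CPM + 0.5) centred on each gene's mean, which was 0.156 for Sgo2a, 0.173 for Sgo2b and 0.173 for Rbm25, beside a median of 0.894 over all genes tested. Sgo2a (chromosome 1, 57995971 to 58025899) was at 54.6, 20.9 and 96.2 CPM in control, 46.9, 35.8 and 157 in stress, and 61.9, 100 and 91.6 in KYZY libraries. Sgo2b (chromosome 8, 63924694 to 63952248) was at 23.9, 10.8 and 42.5, then 19.5, 15.7 and 77.9, and then 28.5, 48.0 and 38.4 CPM in the same order. Like Smc3, both were lowest in control 2 and highest in stress 3. So were Smc1b and, of the lists below, Esco1, Esco2, Ppp2r5c, Sycp1, Sycp2, Smc5 and Smc6. These extremes were therefore not particular to the shugoshin genes. The Sgo2a transcript shares 2363 bases with the neighbouring gene Kctd18, so its reads may have been split. The Sgo2a and Sgo2b transcripts were also poor in GC (40.5% and 41.1%). In the ranks of likeness to Smc3, Nipbl came at 94 and Smc1b at 100.

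For Smc1b, Prrc2c (0.120) and R3hdm1 (0.130) were among the nearest genes, beside a median of 0.560. For Stag3 they were Hps4 (0.172), Dlec1 (0.181) and Sdk1 (0.211), beside 0.631. Like Stag3, all 3 of those were low in KYZY 2 and KYZY 3, and Hps4 was at 3.42 and 3.33 CPM there against 6.46 in KYZY 1. The values rest on 9 libraries that share depth and composition, and are a description.

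**Figure D5:**
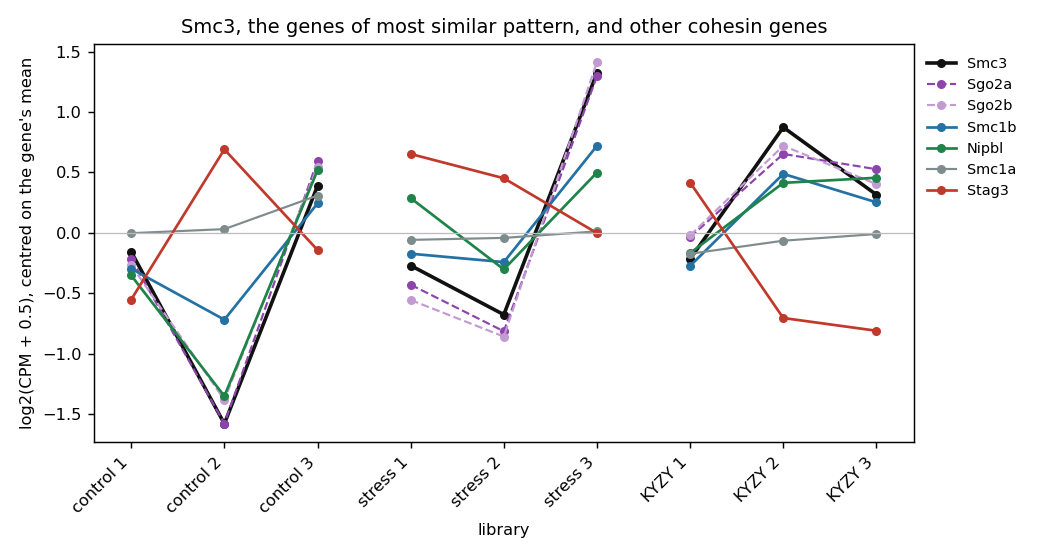
Level of Smc3, of Sgo2a and Sgo2b, whose pattern was nearest to it, and of 4 other cohesin genes in each library, as log2(CPM + 0.5) centred on each gene's mean over 9 libraries. Smc3, Sgo2a and Sgo2b are lowest in control 2 and highest in stress 3, Smc1a lies near 0, and Stag3 lies low in KYZY 2 and KYZY 3.

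The genes that load, release and acetylate cohesin were 11, all of them tested. In stress against control 5 were above 0 and 6 below. The counts were 6 and 5 in KYZY against stress, and 8 and 3 in KYZY against control. In each comparison 0 passed, beside 0% of all genes tested. Of all genes tested, 46.0%, 50.8% and 49.7% were above 0 in these comparisons, in the same order. These shares apply to the lists below as well, and in each list the signs rest on shared libraries. Esco2, an acetyltransferase that locks cohesin onto DNA by modifying SMC3, was the most abundant, at 880 ± 363, 1131 ± 447 and 1077 ± 56.8 CPM in the control, stress and KYZY groups (SD, n = 3). Cdca5 (sororin), which opposes ring opening, stood at 170 ± 35.3, 189 ± 4.21 and 193 ± 56.5 CPM. Pds5a, a ring-associated regulator, was at 1.36 ± 0.188, 1.18 ± 0.112 and 1.88 ± 0.688 CPM, and Chtf18, of the alternative clamp loader, at 5.41 ± 2.25, 4.78 ± 0.793 and 3.49 ± 0.807 CPM in the same order. Pds5b, the paralogue of Pds5a, chosen after its values were seen, was the 1 gene of the 11 without overlap in any comparison. It stood at 4.38 to 5.00 CPM in KYZY and 3.51 to 4.18 in stress libraries, beside 3.76% of all genes higher in KYZY. In either direction, 7.88% of all genes tested had no overlap in stress against control. The shares were 9.19% in KYZY against stress and 7.23% in KYZY against control.

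Of 15 genes of centromeric protection 14 were tested and Ppp2cb was not. In stress against control 11 were above 0 and 3 below, beside 46.0% of all genes above 0. The counts were 5 and 9 in KYZY against stress, and 6 and 8 in KYZY against control, with 0 passing. Sgo1, the other shugoshin, was at 35.4 ± 3.96, 41.4 ± 4.38 and 34.1 ± 3.04 CPM in the control, stress and KYZY groups (SD, n = 3), and the KYZY libraries (30.8 to 36.8 CPM) lay below the stress libraries (38.4 to 46.4) without overlap. Its log2 difference of -0.28 (SE 0.178) had an adjusted p of 0.9345 in edgeR. Ppp2r1b, a phosphatase scaffold subunit, was the other member of the 14 lower in KYZY without overlap, and the 1 member higher in stress than in control (9.06 to 10.0 against 7.59 to 8.60 CPM). It falls outside the rule for named genes and was chosen after its values were seen. Over all genes tested these shares were 5.44% and 3.51%, or 9.19% and 7.88% in either direction. The phosphatase scaffold Ppp2r1a was the most abundant of this list, at 227 ± 26.1, 250 ± 64.9 and 255 ± 26.6 CPM, and Haspin, the kinase that marks centromeric histone H3, was at 197 ± 42.1, 244 ± 57.6 and 185 ± 57.6 CPM. The phosphatase subunits Ppp2ca and Ppp2r5b were at 1.44 to 4.02 and 4.00 to 7.89 CPM over the 9 libraries.

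The 5 genes of cleavage were all tested, and 0 passed. Above 0 were 4 of 5 in stress against control, 3 in KYZY against stress and 4 in KYZY against control. Pttg1 (securin), the inhibitor of separase, was the most abundant of all genes of these lists, at 5193, 3550 and 5172 CPM in control, 2359, 2019 and 6695 in stress, and 5617, 4636 and 5442 in KYZY libraries. Stress held its 2 lowest and its highest library, and the stress minus control difference of -0.33 had an SE of 0.444 on the log2 scale. Cdc20, which activates the anaphase-promoting complex, stood at 170 to 175 CPM in KYZY and 128 to 167 CPM in control libraries. These groups did not overlap, as for 2.43% of all genes higher in KYZY and 7.23% in either direction. The edgeR adjusted p was 0.996. Fbxo5 (Emi1), an inhibitor of that complex, was at 364 ± 89.8, 427 ± 215 and 402 ± 89.3 CPM, and Plk1, the kinase that also phosphorylates cohesin, at 431 ± 199, 437 ± 20.1 and 312 ± 111 CPM in control, stress and KYZY oocytes (SD, n = 3).

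Of 14 genes of the meiotic chromosome axis and related SMC complexes 13 were tested and Syce3 was not, and 0 passed. In stress against control 10 were above 0 and 3 below, beside 46.0% of all genes above 0, and in both other comparisons 7 and 6. Syce2, of the synaptonemal central element, was the most abundant at 374 ± 136, 364 ± 33.9 and 368 ± 159 CPM. Sycp3, of the lateral element, was at 7.41 to 15 CPM in control, 10.2 to 17.9 in stress and 11.3 to 19.3 in KYZY libraries, and its highest 2 libraries, KYZY 2 and stress 3, were again marker-rich. Ctcf, the DNA-binding protein at which cohesin stops, was at 34.7 to 39.8 CPM in control and 40.2 to 47.0 in stress libraries, without overlap, and at 29.0 to 40.7 in KYZY libraries. Hormad2 was also without overlap between control (at most 0.463 CPM) and stress (0.497 to 0.932 CPM). So 2 of the 13 were higher in stress in this way, beside 3.51% of all genes, or 7.88% in either direction. In KYZY against stress, Hormad2 (0 to 0.411 CPM) and Meiob (0.0587 to 0.224 against 0.227 to 0.310) were lower without overlap. This was 2 of 13, beside 5.44% of all genes, or 9.19% in either direction. Several of these values lie near the floor of 12 counts. Meiob in all 3 KYZY libraries and Hormad2 in KYZY 2 and KYZY 3 lay below it, so neither was taken to be seen there. Sycp1 was at 0.201 to 1.55 CPM.

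Without the 4 marker-rich libraries, with 2 control, 2 stress and 1 KYZY library left, edgeR called 148 of 14220 genes (1.04%) in stress against control, 115 (0.809%) in KYZY against stress and 119 (0.837%) in KYZY against control, where the lone KYZY library was assumed to vary like the others. Of the cohesin genes 0 were called. In that fit stress minus control was 0.25 for Smc3, 0.32 for Smc1b and 0.83 for Nipbl on the log2 scale, and the Rad21 difference was 0.22 as before.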

How the data were processed

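RNA of 9 libraries (3 control, 3 stress, 3 KYZY, 1 mouse each) was turned into cDNA (SMART-Seq v4) and fragmented by Tn5 transposase, per the labels' protocols, which mark neither strand nor molecules. The deposited tables hold expected counts per gene, already whole numbers, 1 table per library, with no unit named in them. The submitters' processing notes name the tools StringTie, HISAT2, DESeq2, Trim Galore and bcl2fastq 2.20, with the builds GRCm38 and mm10, without roles or other versions. In control 1, 401 genes stood at exactly 4 and only 53 at 3, and the other libraries were alike, so 1 read pair was taken to be worth about 4 counts. Floors cover counting error only, since amplified reads are not independent molecules.

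Counts were fitted in R 4.3.3 with edgeR 4.0.16 (TMM scaling; filterByExpr at 10 counts per gene and 15 in total, keeping 13890 genes and dropping 10846 that held 0.0168% of counts). A quasi-likelihood model with 1 mean per group, 6 residual degrees of freedom and robust spread gave 2-sided tests, adjusted by Benjamini-Hochberg over all genes kept at a threshold of 0.05. The script was tested on simulated data. The p-values measure the spread between libraries of separate mice. Ratios were compared by exact permutation. Alternatives were DESeq2 1.42.0 as a test (control as the reference level) and as scaling, other filters, counts divided by 4, fits of 2 groups, a replicate block, leaving out each library in turn, and leaving out the 4 libraries with the highest cumulus markers.

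Gene positions and lengths are from GENCODE M21 on GRCm38, in which all 10 genes were matched by symbol, and promoter windows from RefSeq. Near-identical copies were searched with blastn 2.17.0. The tables do not say how reads shared between genes were counted. Same-numbered control and stress libraries deviated together from their group means across genes (correlations of 0.31, 0.18 and 0.35). Control and KYZY numbers (0.51, -0.14 and 0.56) and stress and KYZY numbers (0.40, -0.15 and 0.17) did not do so for each pair. The labels tie no number to a litter or day. Among control and stress libraries of different number, control 2 with stress 1 reached 0.23 and the rest lay from -0.41 to -0.041. Named were all 10 cohesin genes and, of each list of partners, the gene of highest mean level, those past the threshold and the 2 of smallest p in each comparison, together with the 3 nearest in pattern to Smc1b, Stag3 and Smc3. Rec8 was not tested for likeness. One gene that the rule names for Smc1b is not reported here. The genes and lists were chosen with earlier results of these data known. The GC values, the shares of genes with a smaller spread and the block in 2 groups were added after the values were seen.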

Additional observations from a re-analysis of the deposited data

How the results depend on the processing

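With 3 libraries a group the median standard error of a log2 difference was 0.396, which limits what could be called. Across 18 alternatives per comparison 0 cohesin genes were called, and the smallest adjusted p over them was 0.418 (Rad21, KYZY against control, without the 4 marker-rich libraries, edgeR). Rad21 kept a positive difference in all of them in each comparison (0.20 to 0.23, 0.17 to 0.40 and 0.38 to 0.61 when 1 library was left out, in stress against control, KYZY against stress and KYZY against control). The cause of the changes that follow was not tested.

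Over all genes, the count called in stress against control, KYZY against stress and KYZY against control was 0 in each, but 22, 13 and 1 with DESeq2, 148, 115 and 119 without the 4 marker-rich libraries, and 0 to 2, 0 to 1 and 0 to 3 when 1 library was left out, the highest of these without control 3. Fits of only the 2 groups compared called 0, 1 and 0 genes. With the replicate block in all 9 libraries 0 cohesin genes were called. The replicate block in only the 2 groups, added after the data were seen, called 1, 4 and 0 genes. Only for control and stress did all 3 same-numbered pairs correlate above 0. There, control 2 correlated more with stress 1 (0.23) than with stress 2 (0.18), so number alone did not mark the pairs.

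Smc3 in KYZY against stress (-0.01) was near 0 and had the opposite sign with DESeq2 (0.0059), DESeq2 size factors (0.0060), counts divided by 4 (0.017), no filter (0.011), the stricter filter (0.063), only the 2 groups (0.029), the replicate block (0.32 in all libraries, 0.22 in 2 groups) and without the 4 libraries (0.26). Smc1a there was 0.0075 with the stricter filter, and Rad21l was 0.031 with the replicate block and 0.25 with the block in 2 groups. Stag2 in KYZY against control was -0.0011 with the block in 2 groups. Without the 4 libraries the sign also changed for Rad21l (0.61) and Stag2 (-0.22) in stress against control, for Smc1b (-0.055), Stag1 (-0.085), Stag2 (0.14) and Nipbl (-0.18) in KYZY against stress, and for Stag1 (-0.043), Stag2 (-0.079), Stag3 (0.31) and the Stag3 to Stag1 plus Stag2 ratio (0.66) in KYZY against control.

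When 1 library was left out, the difference crossed 0 in stress against control for Smc1b (-0.0042 to 0.70), Smc3 (-0.22 to 1.11), Rad21l (-0.76 to 0.42), Stag1 (-0.028 to 0.31) and Stag2 (-0.16 to 0.27). In KYZY against stress it did so for Smc1b (-0.17 to 0.41), Smc3 (-0.33 to 0.85), Rad21l (-0.57 to 0.63), Stag1 (-0.041 to 0.28), Stag2 (-0.33 to 0.18), Nipbl (-0.12 to 0.24) and the Smc1b to Smc1a ratio (-0.060 to 0.41). In KYZY against control it did so for Rad21l (-0.53 to 0.063), Stag2 (-0.19 to 0.20) and Stag3 (-1.47 to 0.13). Per kilobase of coding length in place of transcript length, levels moved for Smc1a (5.82), Rad21 (8.50), Stag1 (2.62) and Stag2 (3.57 CPM per kb).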

Other observations

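Some proportions within the complex were looked at after the values had been seen and were not tested. The count of Smc3 was 2.00 to 10.7 times that of Smc1a and Smc1b together, lowest in control 2 and highest in stress 3. The count of Rad21l was 0.0126 to 0.101 times that of Rad21, lowest in stress 3 and highest in stress 2.

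Control 3 and KYZY 3 were the most alike of all 36 pairs of libraries, although they belong to different groups. A chi-square of their counts over genes was 10.8 per degree of freedom, beside 29.4 to 235 for pairs of the same group, and no pair held identical values. For the cohesin genes control 3 and KYZY 3 differed most in Stag3 (0.912 against 0.388 CPM) and Rad21l (1.17 against 0.653), while Smc1b was at 13.2 and 13.3 CPM and Smc3 at 225 and 214 CPM.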
